A study of Saccharomyces cerevisiae with 24 samples.

Results

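The vacuolar protein sorting (VPS) genes of Saccharomyces cerevisiae were followed as plasmids in a pooled overexpression (OE) competition under salt stress. The members were 39 genes given by their systematic names, of which 33 had rows in the table, as 35 of its 4871 rows, because DID4 and VAM6 have a pair of barcodes each (DID4_1 and DID4_2, VAM6_1 and VAM6_2). The other 6 genes (VPS15, PEP5, PEP3, VPS28, VPS33 and VPS4) had no row and were not analysed here. Of the 35 rows, 4 had 0 reads in every library (VPS53, VPS13, VPS17 and VAM6_2), and VPS20 and VPS51 did not pass the filter on low counts, which left 29 rows tested in each strain. Each plasmid of the library used, MoBY 2.0, is a high-copy 2-micron plasmid with a gene of the laboratory strain S288C, its own upstream and downstream sequence, and a DNA barcode that is counted by sequencing. The pools were carried by 4 diploid strains: NCYC3290, a West African strain, YPS128, from North American oak, BC187, from a vineyard, and BY4743, a laboratory strain with deletions in his3, leu2 and ura3 on both chromosome copies and in lys2 and met15 on 1 copy. All groups shared rich medium with G418 to keep the plasmid. The labels give 0.7 M NaCl for both time points, whereas the study describes the generation 0 aliquot as collected before the growth in salt. No competition without salt was analysed here. In each strain 3 libraries were taken after 10 generations of competition (generation 10) and 3 at its start (generation 0), so that 24 libraries fall into 8 groups. The study describes higher copy numbers of the plasmid in BY4743 than in the wild strains, so OE doses differ between strains. A row that fell can mark slower growth of its carriers or loss of the plasmid from them, which barcode counts cannot tell apart.

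Sorting to the vacuole, the degradative organelle of yeast, starts at the Golgi and at the plasma membrane and passes through endosomes. Receptors such as Pep1 carry hydrolases from the Golgi, retromer returns the receptors, and the GARP complex tethers the returning vesicles at the Golgi. The ESCRT complexes sort ubiquitinated membrane proteins into vesicles inside the endosome. The Rab GTPase Vps21 with the tether CORVET drives fusion of early endosomes, HOPS drives fusion at the vacuole, and both tethers are built on a shared class C core. The Vps34 lipid kinase makes the phosphatidylinositol 3-phosphate that many of these proteins bind. The vacuole stores sodium and changes volume under osmotic stress, and many vps deletion mutants are known to grow poorly on salt. Here the genes were in excess, not deleted.

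Because the inserts carry the genes' own regulatory sequence, the upstream windows of 4 members that the results turn on are shown, from RefSeq assembly R64 of S288C, on the gene's strand. Each window runs from 300 to 51 bases before the start codon and is 250 bases long. Capitals mark matches on either strand to the stress response element AGGGG, bound by Msn2 and Msn4, or to the calcineurin response element searched as GNGGCNCA, bound by Crz1. No window shown held both motifs, so no matches overlapped.
VPS24 (rose in 3 strains, chrXI:359843-360092, plus strand): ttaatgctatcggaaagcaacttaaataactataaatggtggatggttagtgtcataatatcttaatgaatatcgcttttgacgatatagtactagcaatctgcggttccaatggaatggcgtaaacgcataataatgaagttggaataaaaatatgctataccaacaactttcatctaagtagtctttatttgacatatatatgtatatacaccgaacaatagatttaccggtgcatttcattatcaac
VPS21 (called in opposite directions, chrXV:490879-491128, minus strand): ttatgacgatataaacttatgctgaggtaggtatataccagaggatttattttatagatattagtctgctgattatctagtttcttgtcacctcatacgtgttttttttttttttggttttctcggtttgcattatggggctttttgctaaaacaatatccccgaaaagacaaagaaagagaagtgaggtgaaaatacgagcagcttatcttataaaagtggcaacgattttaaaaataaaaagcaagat
VPS27 (fell most in BC187, chrXIV:636686-636935, plus strand): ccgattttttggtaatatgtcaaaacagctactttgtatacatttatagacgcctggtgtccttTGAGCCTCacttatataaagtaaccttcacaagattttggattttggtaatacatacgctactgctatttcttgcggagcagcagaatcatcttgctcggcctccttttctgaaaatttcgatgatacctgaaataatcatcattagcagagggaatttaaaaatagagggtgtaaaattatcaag
VPS36 (fell in 3 strains, chrXII:954710-954959, plus strand): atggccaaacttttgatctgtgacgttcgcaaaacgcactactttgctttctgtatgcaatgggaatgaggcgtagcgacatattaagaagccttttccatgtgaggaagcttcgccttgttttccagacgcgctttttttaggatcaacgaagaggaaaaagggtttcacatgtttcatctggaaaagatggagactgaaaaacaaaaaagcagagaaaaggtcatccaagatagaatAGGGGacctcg

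The AGGGG motif was found in 4 of the 33 VPS windows (VPS17, VPS35, VPS36 and VPS53), and in 944 of the 4810 windows of library genes that could be read, or 19.6%. The GNGGCNCA motif was found in 1 of the 33, that of VPS27, and in 167 of the 4810, or 3.47%. The windows of VPS24 and VPS21, the members with the largest rises, held neither. The VPS21 window runs 6 bases into the coding region of the neighbouring gene, and the other 3 windows lie between genes. A match is a description of these letters and not a measured site.

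Values are reads scaled per 1000000 reads of a library, where the library size leaves out 25 rows that exceeded 50000 reads in some library. None of these was a VPS row. Library sizes at generation 10 were 501261 to 1868859 reads in NCYC3290, 1679115 to 5010411 in YPS128, 13877769 to 17680136 in BC187 and 11962164 to 18609776 in BY4743, and at generation 0 they were 8407149 to 23477556. In NCYC3290 and YPS128 the 25 rows took most of the reads at generation 10, since the totals before leaving them out were 4615027 to 30699608 and 20420543 to 30351288. A median VPS row therefore had only 5 to 187 reads in the NCYC3290 libraries of generation 10 and 70 to 409 in those of YPS128, against 1197 to 1679 in BC187 and 1731 to 3066 in BY4743. The biological coefficient of variation over all rows was 0.855 in NCYC3290, 0.539 in YPS128, 0.110 in BC187 and 0.126 in BY4743. For the median VPS row the highest of 3 generation 10 values was 13.1-fold the lowest in NCYC3290 and 2.49-fold in YPS128, but 1.14-fold in BC187 and 1.25-fold in BY4743. Values from NCYC3290 and YPS128 are thus far less precise than those from BC187 and BY4743. The starting pools of some strains were much more alike than those of others. Over 4140 rows the log2 generation 0 means of NCYC3290 and BY4743 had r = 0.987, with 8 rows apart by more than 2-fold, whereas the other 5 pairs of strains had r between 0.636 and 0.892 and 444 to 909 such rows. Of the 29 VPS rows, 0 differed over 2-fold at the start between NCYC3290 and BY4743, against 6 to 9 in the other pairs. Why these pools of separately labelled strains were so alike was not tested. The fold changes of NCYC3290 and BY4743 rest on these generation 0 libraries as labelled, and whether they are the pools the labels name could not be settled here.

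By generation 10 VPS plasmids had fallen more often than they had risen in BC187 and BY4743, the strains with precise libraries. In BC187, 17 of 29 rows fell, where 38.1% of all 4166 rows fell, and 3 rose, where 28.5% of all rows rose. In BY4743, 10 of 29 fell, where 19.5% of all 4186 rows fell, and 1 rose, where 18.2% of all rows rose. In NCYC3290, 6 fell and 2 rose, where 26.1% of 4171 rows fell and 1.89% rose, and in YPS128, 1 fell and 1 rose, where 8.47% of 4157 rows fell and 4.11% rose. A row was called at a false discovery rate (FDR), the Benjamini-Hochberg adjusted p of edgeR's quasi-likelihood test over all rows, under 0.05. The median log2 fold change (generation 10 over generation 0) of the VPS rows was -0.46 in BC187, against -0.05 over all rows, and -0.19 in BY4743, against 0.01. It was -1.26 in NCYC3290, against -1.58 over all rows, and -0.87 in YPS128, against -0.56. The order in NCYC3290 reversed without generation 10 replicate 3 (VPS median minus that of all rows -0.15). In BC187 22 of the 29 rows lay below the median of all rows, as did 19 in BY4743, 17 in YPS128 and 12 in NCYC3290. Over the 4 strains 21 of the 29 rows fell in at least 1, 5 rose in at least 1, and 4 (SNF8, VPS38, VPS52 and VPS54) were called in none. Of the 4140 rows tested in all 4 strains, 55.2% fell in at least 1, 40.05% rose in at least 1 and 16.3% were called in none. Of the 10 rows that fell in BY4743, 8 also fell in BC187, which is 80% of the BY4743 rows and 47.1% of the 17 in BC187. Over all rows the shares were 79.8% and 40.6%, so this overlap is near that of all rows. These comparisons use different libraries. The 4 rows that fell in 3 strains were VPS36, VPS60, VPS3 and PEP1, where 8.14% of all rows did so, and 0 fell in all 4, where 1.498% did. Counting calls in either direction, 20 VPS rows were called in BC187 (66.7% of all rows), 11 in BY4743 (37.7%), 8 in NCYC3290 (28.0%) and 2 in YPS128 (12.6%).

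The values of the single libraries were compared as well. All 3 generation 10 values lay below all 3 generation 0 values for 19 VPS rows in BC187 (40.8% of all rows), 12 in BY4743 (28.7%), 15 in NCYC3290 (60.0%) and 14 in YPS128 (45.1%). They lay above for 3 in BC187 (31.3% of all rows), 1 in BY4743 (27.4%), 2 in NCYC3290 (3.45%) and 3 in YPS128 (9.67%). Summed over the VPS rows, normalised reads were 4909 ± 46.6 at generation 10 and 6281 ± 65.0 at generation 0 in BC187, and 5743 ± 165 at generation 10 and 6409 ± 40.4 at generation 0 in BY4743 (SD, n = 3 each), without overlap in either strain. In NCYC3290 the sums were 9801 ± 5286 at generation 10 and 6308 ± 68.5 at generation 0, and in YPS128 they were 6633 ± 884 at generation 10 and 5527 ± 283 at generation 0, with overlap in both. A few rows weigh heavily in these generation 10 sums. In NCYC3290 replicate 1, with a sum of 15847, VPS21 had 4981 and VPS24 had 4326. In YPS128 VPS24 had 3903, 2861 and 2732.

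**Figure D1:**
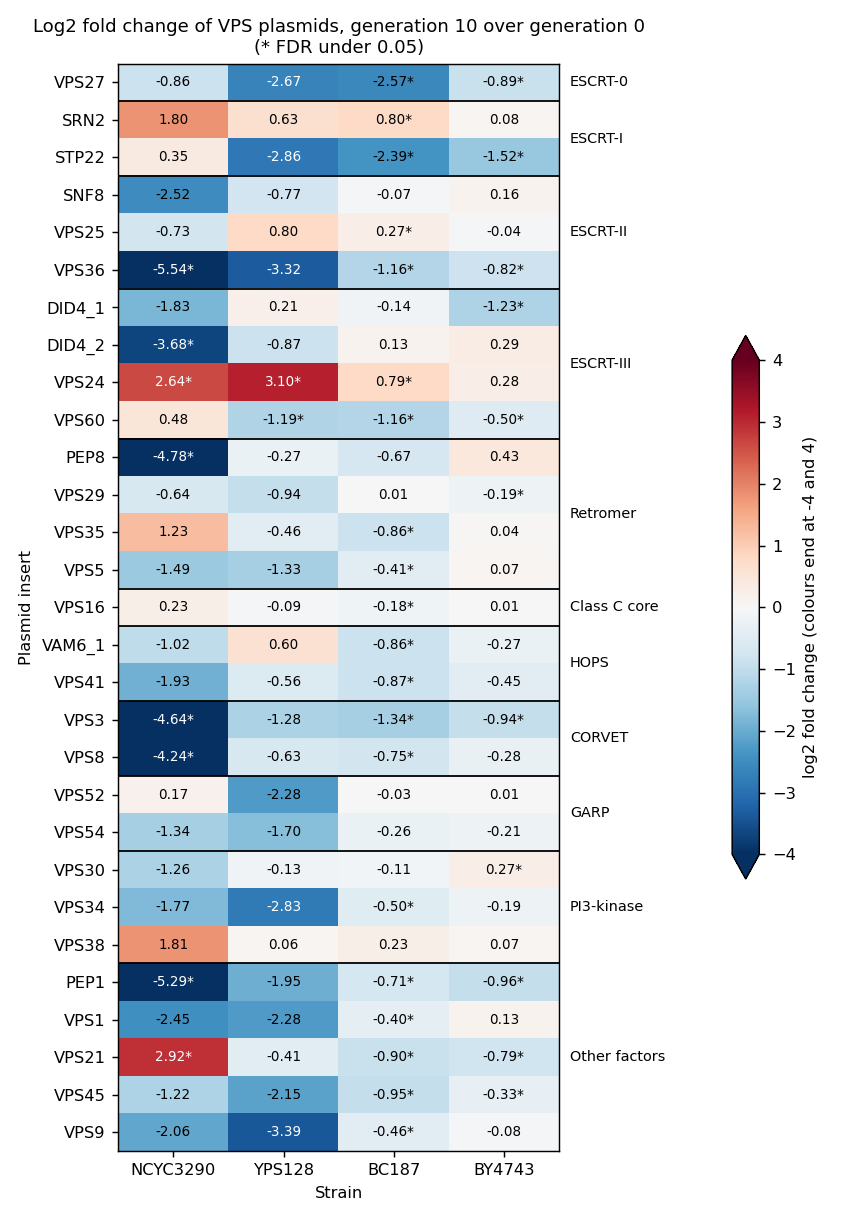
Log2 fold change of the 29 tested VPS rows (vertical axis, grouped by complex) in the 4 strains (horizontal axis), as numbers and colours, with an asterisk at an FDR under 0.05. VPS24 is the only row above 2 in both NCYC3290 and YPS128, and the BC187 column has 17 asterisks on falls and 3 on rises.

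Counts in the wild strains of low depth rest on single libraries and on the scaling. Without generation 10 replicate 2, the deepest of its group, 15 VPS rows fell in YPS128, where 39.2% of all rows then fell. Without any 1 generation 0 library of that strain 0 VPS rows fell, where 0.0481 to 0.361% of all rows fell, and 0 fell without generation 10 replicate 1, where 5.75% did. In NCYC3290 15 fell without generation 10 replicate 3, where 45.4% of all rows then fell, while 10 fell without generation 10 replicate 1 (36.4% of all rows). On leaving out any 1 generation 0 library 4 fell (VPS36, PEP1, PEP8 and VPS3), where 13.3 to 13.7% of all rows fell, so that the calls of VPS24, VPS21, VPS8 and DID4_2 in this strain were lost there. In YPS128 replicate 2 held the highest of the 3 generation 10 values for 19 of the 29 rows. Scaling with TMM factors raised the median of all rows by 2.06 (log2) in NCYC3290 and 0.62 in YPS128, and scaling to all reads shifted it by -3.78 and -3.09. Neither moved it by more than 0.05 in BC187 or BY4743. The VPS rows that rose and fell then numbered 2 and 3 (TMM) or 0 and 22 (all reads) in NCYC3290 and 4 and 0 or 0 and 28 in YPS128. Of all rows of NCYC3290, 4.11% rose and 7.33% fell with TMM, and 0.430% rose and 89.3% fell when scaled to all reads. In YPS128 10.3% rose and 4.72% fell with TMM, and 0.383% rose and 93.5% fell when scaled to all reads. Directions in these strains are therefore relative to the scaling, and each value can be set against the median of all rows.

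**Figure D2:**
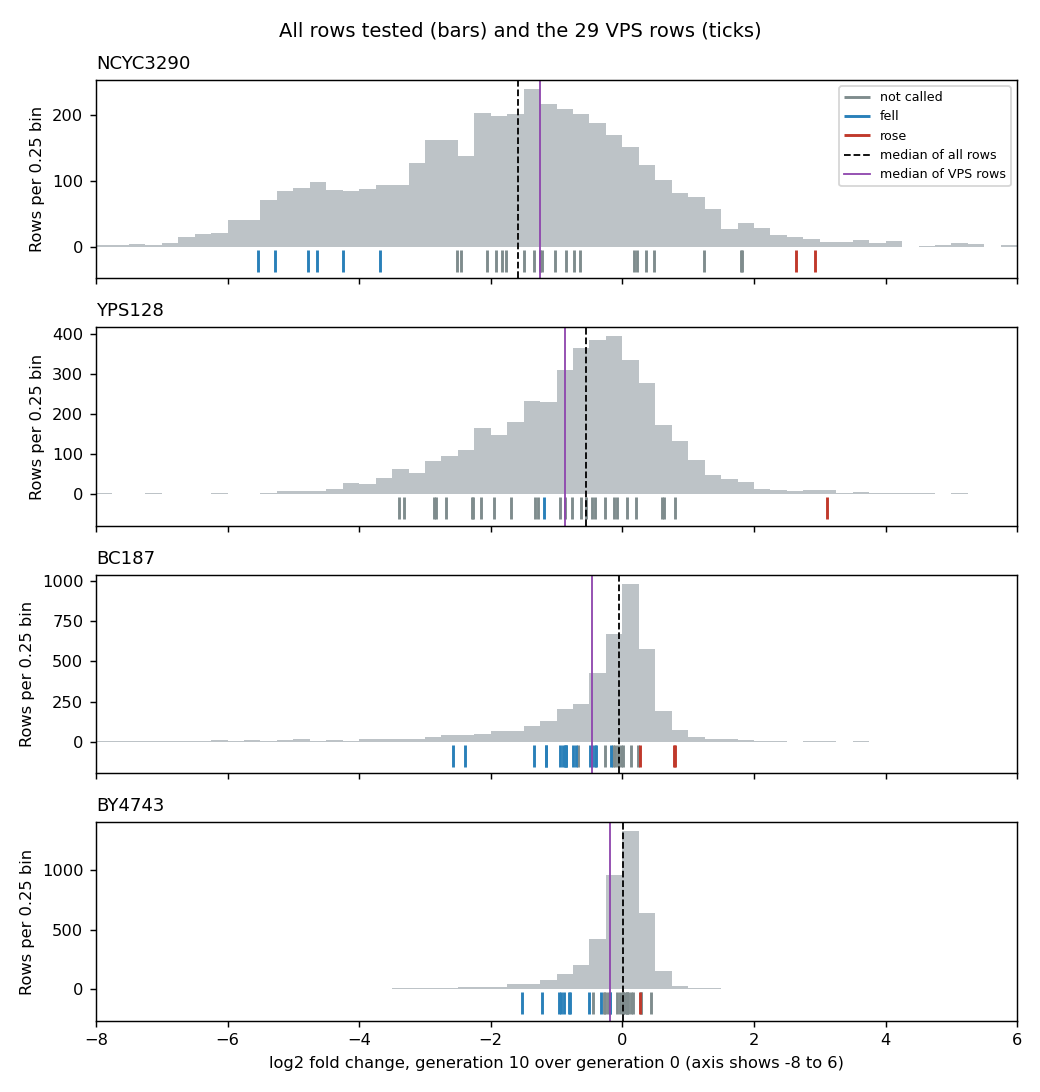
Number of all rows tested per 0.25 of log2 fold change (grey bars) in each strain, with the 29 VPS rows as ticks below the axis, coloured by call, and the medians of all rows (dashed) and of VPS rows (solid). The spread of all rows is wide in NCYC3290 and YPS128 and narrow in BC187 and BY4743. The VPS median lies below that of all rows in YPS128, BC187 and BY4743. In NCYC3290 it lies above, but without generation 10 replicate 3 it lay below (by -0.15).

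In BC187 called rows of ESCRT-I, ESCRT-II and ESCRT-III went opposite ways within each complex. In NCYC3290 and YPS128 only those of ESCRT-III did, and in BY4743 none did. Of 10 ESCRT rows tested, 4 fell and 3 rose in BC187, and 5 fell and 0 rose in BY4743. Of all rows 38.1% fell and 28.5% rose in BC187, so the ESCRT counts there are near those of all rows, and 19.5% fell and 18.2% rose in BY4743. VPS27 (YNR006W), the ESCRT-0 subunit that binds ubiquitinated cargo and recruits the rest of the machinery, fell most in BC187. VPS27 had 79.6, 72.4 and 61.0 normalised reads at generation 10 in BC187, against 497, 393 and 376 at generation 0. In BY4743 VPS27 had 169.9, 146 and 165 at generation 10, against 295, 295 and 299.9 at generation 0. All generation 10 values lay below all generation 0 values in both strains, with log2 fold changes of -2.57 ± 0.13 (SE, edgeR FDR 7.48e-07) in BC187 and -0.89 ± 0.08 (FDR 0.000132) in BY4743. The fall was larger in BC187 than in BY4743 by 1.68 ± 0.16 on the log2 scale, in an edgeR test of the difference itself (FDR 3.10e-06). In YPS128 VPS27 had 4.12, 81.6 and 4.17 at generation 10, against 182, 210.4 and 191 at generation 0, all lower but with replicate 2 apart from the others (FDR 0.135). In NCYC3290 the values were 8.26, 455 and 8.03 at generation 10, against 311, 265 and 273 at generation 0, so that 2 libraries were low and replicate 2, the smallest library, was high.

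In BC187 ESCRT-I, which takes over the cargo, showed a fall of 1 subunit and a rise of another. STP22 (YCL008C), the yeast homologue of mammalian TSG101, had 27.4, 24.4 and 23.1 normalised reads at generation 10 in BC187, against 138, 149 and 106 at generation 0. STP22 in BY4743 had 7.52, 9.44 and 15.7 at generation 10, against 33.1, 30.7 and 30.3 at generation 0. These were falls of -2.39 ± 0.15 (edgeR FDR 2.19e-06) and -1.52 ± 0.31 (FDR 0.0071) in log2 fold change, and the groups did not overlap in either strain. In YPS128 STP22 had 0.458, 26.5 and 10.7 at generation 10, against 83.3, 111 and 84.3 at generation 0 (FDR 0.117), and in NCYC3290 it had 4.51, 1.99 and 100.1 at generation 10 against 31.1, 31.6 and 22.4 at generation 0 (FDR 0.862). SRN2 (YLR119W), another ESCRT-I subunit, rose in BC187 with 250.5, 272 and 273 normalised reads at generation 10, against 164, 145 and 148 at generation 0, a log2 fold change of 0.80 ± 0.07 (edgeR FDR 1.85e-05). In BY4743 SRN2 overlapped, at 116, 133 and 159 at generation 10 against 123, 129 and 133 at generation 0, and the 2 strains differed by 0.72 ± 0.15 (FDR 0.0018). SRN2 was also higher in all 3 YPS128 libraries of generation 10 (236, 250.1 and 149) than at generation 0 (138, 127 and 144), with a log2 fold change of 0.63 ± 0.35 that did not pass the test (FDR 0.231). In NCYC3290 SRN2 was at 696, 1.99 and 643 at generation 10 against 129.6, 116 and 141 at generation 0, where the single low value is 1 read.

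In ESCRT-II, which bridges ESCRT-I and ESCRT-III, VPS36 (YLR417W) fell in 3 strains. VPS36, the subunit that binds ubiquitin and lipid, had 2.25, 5.98 and 1.07 normalised reads at generation 10 in NCYC3290, from 3, 3 and 2 reads, against 137, 134 and 112 at generation 0. Summed over the 3 libraries, VPS36 was 60.1-fold lower at generation 10 (8 reads) than at generation 0 (6774 reads), with an exact 95% counting interval of 30.5 to 139-fold that covers counting error alone. The fitted log2 fold change was -5.54 ± 0.94 (edgeR FDR 0.00656). VPS36 had 81.0, 56.0 and 58.6 at generation 10 in BC187, against 134, 141 and 162 at generation 0 (log2 fold change -1.16 ± 0.16, FDR 0.000219). In BY4743 VPS36 had 62.5, 68.9 and 84.6 at generation 10, against 129, 128 and 124 at generation 0 (-0.82 ± 0.14, FDR 0.00318). In YPS128 the VPS36 values of 1.83, 17.2 and 0.596 at generation 10 also lay below the 79.5, 62.4 and 61.9 of generation 0, with -3.32 ± 1.19 (FDR 0.0931). VPS36 was thus lower in all 12 libraries of generation 10 than in any generation 0 library of the same strain. In single strains this held for 60.0% of all rows in NCYC3290, 45.1% in YPS128, 40.8% in BC187 and 28.7% in BY4743. The share of all rows for which it held in every strain was not counted. VPS25 (YJR102C), another ESCRT-II subunit, rose slightly in BC187 (399, 455 and 437 at generation 10 against 347, 360.3 and 359.7 at generation 0, log2 fold change 0.27 ± 0.06, FDR 0.00266) and had -0.04 ± 0.06 in BY4743 (FDR 0.637). SNF8 (YPL002C), the third subunit of the complex, was called in no strain, with -0.07 ± 0.04 in BC187 and 0.16 ± 0.06 in BY4743, and these differed by -0.22 ± 0.08 (FDR 0.0311).

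ESCRT-III proteins polymerise on the endosomal membrane and are taken apart by the ATPase Vps4. VPS24 (YKL041W), which encodes a core subunit of the polymer, was the only member that rose in 3 strains (1.45% of all rows did), though not in NCYC3290 or YPS128 when scaled to all reads. VPS24 had 4326, 1679.8 and 2529 normalised reads at generation 10 in NCYC3290, against 464, 454 and 453 at generation 0. In YPS128 VPS24 had 3903, 2861 and 2732 at generation 10, against 323, 386 and 396 at generation 0. The groups were far apart in both strains, with log2 fold changes of 2.64 ± 0.62 (edgeR FDR 0.0177) in NCYC3290 and 3.10 ± 0.29 (FDR 0.00133) in YPS128, above 97.9% and 99.1% of all rows tested. Scaling to all reads turned both values below 0 (-1.29 and -0.04). In NCYC3290 that value was itself called a fall (edgeR FDR 0.0394), where 89.3% of all rows fell. In BC187 VPS24 had 768, 804 and 788 at generation 10, against 469, 466 and 431 at generation 0 (0.79 ± 0.05, FDR 1.85e-06). In BY4743 it had 629.9, 442 and 512 at generation 10, against 426, 443 and 436 at generation 0, which overlapped (0.28 ± 0.12, FDR 0.0982). The rise was larger in BC187 than in BY4743 by 0.51 ± 0.13 (FDR 0.00769), and over the 4 strains the change of VPS24 differed with an FDR of 1.03e-05. NCYC3290 minus YPS128 gave -0.47 ± 0.62 for VPS24 (FDR 0.691), which does not show that they were alike.

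VPS60 (YDR486C), an accessory ESCRT-III protein, went the other way in 3 strains. VPS60 had 247, 305 and 167 normalised reads at generation 10 in YPS128, against 457, 599.6 and 593 at generation 0 (log2 fold change -1.19 ± 0.28, edgeR FDR 0.0317). In BC187 VPS60 had 211, 225 and 204 at generation 10, against 456, 494 and 483 at generation 0 (-1.16 ± 0.06, FDR 5.34e-07). In BY4743 it had 446, 422 and 428 at generation 10, against 609.6, 616 and 612 at generation 0 (-0.50 ± 0.04, FDR 0.000158). The groups did not overlap in these strains, and the fall was larger in BC187 than in BY4743 by 0.66 ± 0.07 (FDR 9.79e-06). The YPS128 value lay at percentile 31.9 of all rows of that strain, whereas the BC187 and BY4743 values lay at percentiles 14.8 and 15.2, and the YPS128 call was lost without generation 10 replicate 1 or any 1 generation 0 library. It was also lost with TMM, DESeq2, limma voom and the joint fit (FDR 0.137, 0.129, 0.0593 and 0.098). In NCYC3290 VPS60 was at 2063, 144 and 505 at generation 10 against 652, 641 and 656 at generation 0, with libraries on both sides.

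DID4, a further core ESCRT-III gene, was measured by a pair of barcodes, and they did not move alike in BY4743. DID4_1 had 63.1, 37.6 and 43.8 normalised reads at generation 10 in BY4743, against 119, 107 and 112 at generation 0 (log2 fold change -1.23 ± 0.20, edgeR FDR 0.00291). DID4_2 in BY4743 had 106, 77.6 and 61.5 at generation 10, against 63.0, 78.7 and 58.8 at generation 0 (0.29 ± 0.22, FDR 0.335). The log2 ratio of DID4_1 to DID4_2 averaged -0.76 ± 0.28 at generation 10 and 0.76 ± 0.28 at generation 0 (SD, n = 3 each), without overlap, with p = 0.1 in a two-sided exact permutation test, the smallest that 3 against 3 allows. The ratio in BC187 averaged -0.65 ± 0.003 at generation 10 and -0.37 ± 0.19 at generation 0, also without overlap (exact permutation p = 0.1). In NCYC3290 and YPS128 it overlapped (exact permutation p = 0.6 and 0.4). Neither barcode passed the edgeR test in BC187 (-0.14 ± 0.10 and 0.13 ± 0.11), and DID4_1 differed between BC187 and BY4743 by 1.08 ± 0.23 (FDR 0.00204). In NCYC3290 DID4_2 had 6.01, 7.98 and 0.535 at generation 10, from 8, 4 and 1 reads, against 61.0, 51.5 and 59.4 at generation 0 (-3.68 ± 0.96, FDR 0.0259). This call was lost with TMM factors (FDR 0.222) and with DESeq2 (FDR 0.381). DID4_1 had -1.83 ± 0.89 in NCYC3290 (FDR 0.175). Both barcodes carry the same gene, so a call on 1 of them does not describe DID4 as such. VPS20 had at most 16 reads in any library, with 12, 3 and 3 reads at generation 10 in BC187 against 1, 1 and 4 at generation 0, and was not tested.

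**Figure D3:**
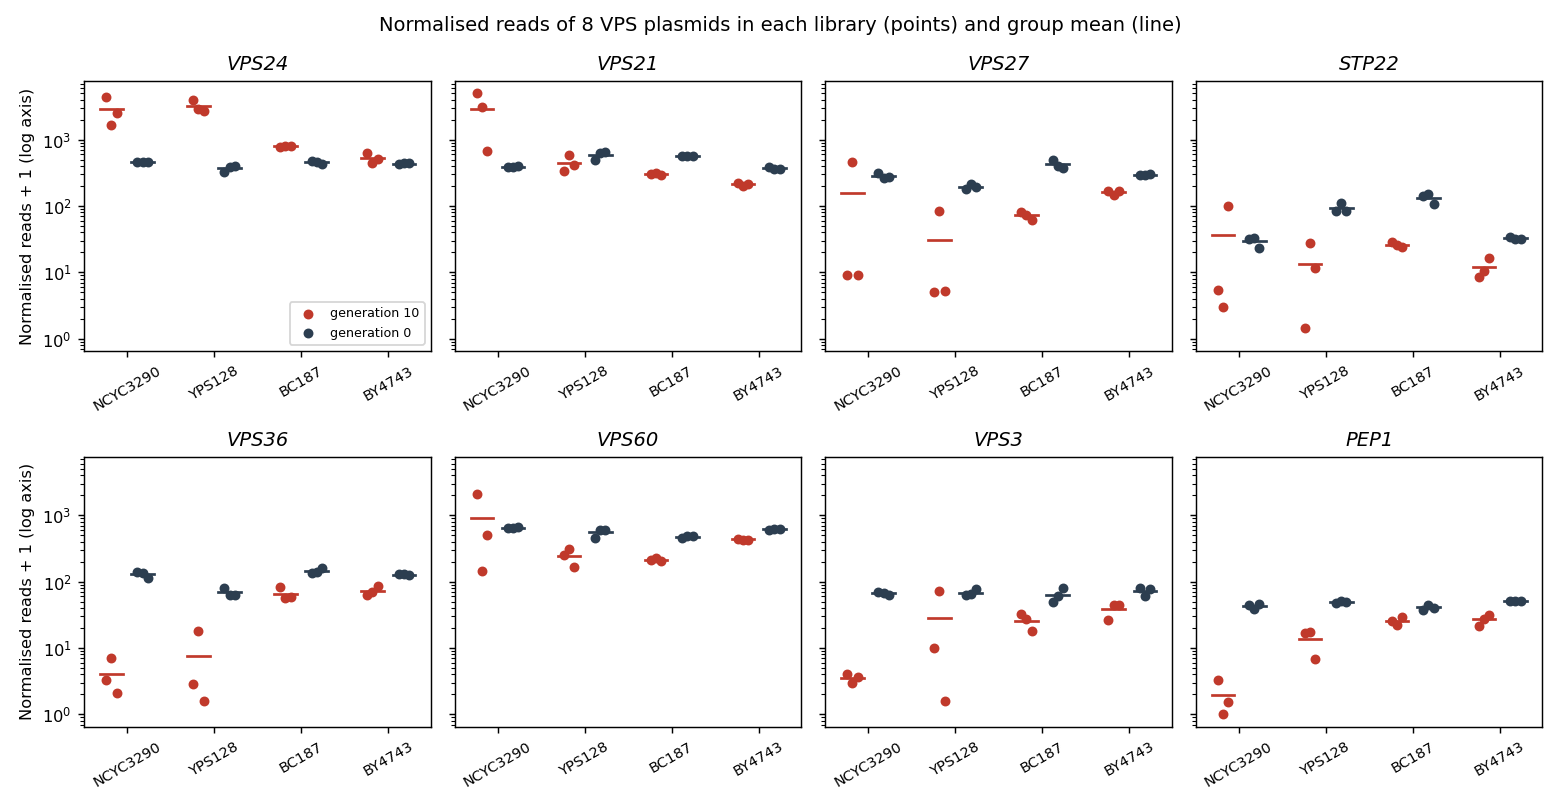
Normalised reads plus 1 (vertical log axis) of 8 VPS plasmids in every library, with generation 10 (red) left of generation 0 (dark) in each strain (horizontal axis), each point a library and each line a group mean. VPS24 at generation 10 stands above generation 0 in NCYC3290, YPS128 and BC187, VPS21 does so in NCYC3290 alone, and VPS36 at generation 10 lies below generation 0 in all 4 strains.

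Retromer plasmids fell in part, and not in the same strains. VPS35 (YJL154C), the cargo-binding scaffold of retromer, had a log2 fold change of -0.86 ± 0.08 in BC187 (edgeR FDR 2.15e-05) and 0.04 ± 0.08 in BY4743 (FDR 0.739), a difference of -0.89 ± 0.11 (FDR 3.30e-05). VPS5 (YOR069W), a sorting nexin subunit, had -0.41 ± 0.14 in BC187 (FDR 0.0252) and 0.07 ± 0.07 in BY4743 (FDR 0.431), a difference of -0.49 ± 0.13 (FDR 0.00897). The VPS5 start levels were unlike, with mean generation 0 values of 347 in NCYC3290 and 404 in BY4743 but 37.0 in YPS128 and 54.6 in BC187. VPS29 (YHR012W) fell in BY4743 by a small amount, -0.19 ± 0.06 (FDR 0.0409), a call that was lost on leaving out any library of that strain except generation 10 replicate 1, and had 0.01 ± 0.05 in BC187 (FDR 0.819). PEP8 (YJL053W), the yeast Vps26 subunit, fell in NCYC3290, where it had 2.25, 0 and 0 normalised reads at generation 10, against 25.3, 26.1 and 18.1 at generation 0. From 3 reads against 1252 this was 29.6-fold lower, with an exact 95% counting interval of 10.1 to 144-fold (fitted log2 fold change -4.78 ± 1.06, FDR 0.0139), a call lost with TMM factors (FDR 0.104) and with limma voom (FDR 0.0519). PEP8 was scarce in BC187, at 2.32, 4.11 and 3.14 at generation 10 against 4.90, 5.20 and 5.07 at generation 0, and was not called there (-0.67 ± 0.28, FDR 0.0613).

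The tethers of the endosome and vacuole fell in BC187. All 5 rows tested of the class C core, HOPS and CORVET fell there, where 38.1% of all rows fell. In NCYC3290 the CORVET rows alone fell, in BY4743 VPS3 alone, and in YPS128 none of the 5. Of all rows 26.1%, 19.5% and 8.47% fell in these strains. VPS3 (YDR495C), a CORVET subunit that binds the Rab Vps21, fell in 3 strains. VPS3 had 3.005, 1.99 and 2.68 normalised reads at generation 10 in NCYC3290, from 4, 1 and 5 reads, against 69.8, 66.4 and 61.7 at generation 0 (log2 fold change -4.64 ± 0.68, edgeR FDR 0.00634). In BC187 VPS3 had 31.2, 26.3 and 17.0 at generation 10, against 49.0, 60.4 and 79.7 at generation 0 (-1.34 ± 0.26, FDR 0.00171). In BY4743 it had 25.7, 43.0 and 43.4 at generation 10, against 78.1, 59.4 and 77.7 at generation 0 (-0.94 ± 0.24, FDR 0.0178), a call lost without generation 0 replicate 1 or 3. The groups did not overlap in these 3 strains, whereas in YPS128 the values 9.16, 71.9 and 0.596 overlapped the 61.3, 63.8 and 75.4 of generation 0 through replicate 2.

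VPS8 (YAL002W), the other CORVET-specific subunit, fell in NCYC3290 and BC187. VPS8 had 9.01, 33.9 and 3.21 normalised reads at generation 10 in NCYC3290, against 286, 286 and 264 at generation 0 (log2 fold change -4.24 ± 1.04, edgeR FDR 0.0204), and 94.8, 121 and 59.6 in YPS128, against 128, 144 and 154 (-0.63 ± 0.46, FDR 0.344). VPS8 was the only member lower in NCYC3290 than in YPS128 by the test of the difference, at -3.64 ± 1.08 (FDR 0.045). The median of this difference over all rows was -0.96. With TMM factors the call of the VPS8 fall in NCYC3290 was lost (FDR 0.146). In BC187 VPS8 had 95.02, 85.2 and 89.0 at generation 10, against 151, 148 and 154 at generation 0 (-0.75 ± 0.08, FDR 6.23e-05), while in BY4743 it overlapped (-0.28 ± 0.19, FDR 0.267), and the difference of these strains was not called (-0.47 ± 0.22, FDR 0.0963). The HOPS genes VPS41 and VAM6 (row VAM6_1) had -0.87 ± 0.06 (FDR 2.98e-06) and -0.86 ± 0.08 (FDR 2.09e-05) in BC187. In BY4743 they had -0.45 ± 0.15 (FDR 0.0507) and -0.27 ± 0.13 (FDR 0.149), and of these 2 only VAM6_1 differed between the strains (-0.59 ± 0.16, FDR 0.00939). VPS16, the one class C core gene with a row, fell in BC187 by a small amount (-0.18 ± 0.06, FDR 0.0231), a call lost without generation 0 replicate 2 or generation 10 replicate 2 and with TMM or DESeq2 scaling.

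The Rab GTPase gene VPS21 (YOR089C), a yeast Rab5 homologue that marks early endosomes, was the only member called in opposite directions. VPS21 had 4981, 3124 and 668 normalised reads at generation 10 in NCYC3290, against 379, 380.0 and 399 at generation 0 (log2 fold change 2.92 ± 0.82, edgeR FDR 0.0345). In BC187 VPS21 had 307, 312 and 296 at generation 10, against 566, 568 and 567 at generation 0 (-0.90 ± 0.04, FDR 4.07e-07). In BY4743 it had 221, 201 and 217 at generation 10, against 381, 363 and 363 at generation 0 (-0.79 ± 0.06, FDR 8.95e-05), and BC187 minus BY4743 was -0.10 ± 0.07 (FDR 0.26). The NCYC3290 libraries were all higher and those of BC187 and BY4743 all lower than at generation 0, without overlap. In YPS128 VPS21 was at 333, 579.8 and 412 at generation 10 against 492, 625 and 646 at generation 0 (-0.41 ± 0.27, FDR 0.291), and NCYC3290 exceeded YPS128 by 3.33 ± 0.85 (FDR 0.0231), the only member higher there. The call of the rise in NCYC3290 is fragile. The call was lost on leaving out any library of that strain except generation 10 replicate 3, and scaling to all reads turned the value to -0.92. Over the 4 strains the change of VPS21 differed with an FDR of 6.46e-05.

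The other sorting factors all fell in BC187, 5 of 5 rows, where 38.1% of all rows fell. PEP1 (YBL017C), the Vps10 receptor that carries carboxypeptidase Y and the longest member tested at 4740 bp, fell in 3 strains. PEP1 had 2.25, 0 and 0.535 normalised reads at generation 10 in NCYC3290, from 3, 0 and 1 reads, against 43.2, 37.7 and 45.2 at generation 0. This was 38.1-fold lower on 4 against 2147 reads, with an exact 95% counting interval of 14.9 to 139.9-fold (fitted log2 fold change -5.29 ± 0.89, edgeR FDR 0.00656). In BC187 PEP1 had 24.3, 21.0 and 28.0 at generation 10, against 36.1, 43.9 and 39.7 at generation 0 (-0.71 ± 0.16, FDR 0.00456). In BY4743 it had 20.7, 26.3 and 30.9 at generation 10, against 51.0, 50.04 and 50.7 at generation 0 (-0.96 ± 0.19, FDR 0.00667). In YPS128 PEP1 was at 15.6, 16.2 and 5.96 at generation 10 against 47.0, 50.8 and 49.2 at generation 0 (-1.95 ± 0.74, FDR 0.106). Like VPS36, PEP1 and VPS45 were lower in every generation 10 library of each strain than in its generation 0 libraries. The share of all rows that were so was not counted. VPS45 (YGL095C), a Sec1-family regulator of endosomal SNAREs, had -0.95 ± 0.07 in BC187 (FDR 7.09e-06) and -0.33 ± 0.09 in BY4743 (FDR 0.0215), a difference of -0.62 ± 0.12 (FDR 0.000745), and the BY4743 call was lost on leaving out any 1 generation 0 library. VPS1, a dynamin-like GTPase, and VPS9, the exchange factor of Vps21, fell in BC187 (-0.40 ± 0.12, FDR 0.0181, and -0.46 ± 0.13, FDR 0.0127) and had 0.13 ± 0.11 and -0.08 ± 0.09 in BY4743. The BC187 call of VPS1 was lost without generation 0 replicate 1 or 2 or generation 10 replicate 2, and that of the retromer gene VPS5 without generation 0 replicate 1 or 2 or generation 10 replicate 1. In YPS128 VPS9 had the lowest fitted value of the members, -3.39 ± 1.19, which did not pass the test (FDR 0.0878).

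Of the lipid kinase and GARP genes only VPS34 and VPS30 (YPL120W) were called, in 1 strain each. VPS34 (YLR240W), the kinase itself, had -0.50 ± 0.12 in BC187 (edgeR FDR 0.00735) and -0.19 ± 0.18 in BY4743 (FDR 0.434). VPS30, the yeast Beclin homologue shared by the sorting and autophagy forms of the complex, was the only member that rose in BY4743, at 325, 350.0 and 389 normalised reads at generation 10 against 298, 297 and 288 at generation 0. Its log2 fold change there was 0.27 ± 0.07 (FDR 0.026), a call lost on leaving out any generation 0 library or generation 10 replicate 2, while BC187 had -0.11 ± 0.09 (FDR 0.287), a difference of -0.38 ± 0.12 (FDR 0.021). VPS38 (YLR360W), the subunit specific to the sorting form, was called nowhere, although in NCYC3290 it stood at 1198 normalised reads in generation 10 replicate 3 and at 3.76 and 3.99 in the others, against 122, 112 and 109.9 at generation 0. The GARP genes VPS52 and VPS54 were called nowhere, with -0.03 ± 0.11 and -0.26 ± 0.11 in BC187 and 0.01 ± 0.09 and -0.21 ± 0.14 in BY4743. In YPS128 all generation 10 values of both genes lay below those of generation 0, with -2.28 ± 1.21 and -1.70 ± 0.49 (FDR 0.21 and 0.0582). VPS51, the smallest GARP subunit, had at most 10 reads in any library and was not tested.

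BC187 and BY4743 were compared directly because their libraries are of like depth and spread. The change differed in 15 of 29 VPS rows, where 44.7% of all 4205 rows differed, with 10 lower in BC187 (29.2% of all rows) and 5 higher (15.5%). The 10 lower were VPS27, STP22, SNF8, VPS60, VAM6_1, VPS1, VPS45, VPS30, VPS35 and VPS5, and the 5 higher were SRN2, VPS25, DID4_1, VPS24 and VPS29. The share of VPS rows that differed is near that of all rows, and 3 of the 5 higher rows (SRN2, VPS25 and VPS24) rose in BC187. NCYC3290 minus YPS128 called 2 of 29, where 12.1% of all 4184 rows were called, with VPS21 higher (1.12% of all rows were) and VPS8 lower (11.0%). The F test over the 4 strains called 9 of 29 (VPS8, SNF8, VPS36, DID4_2, VPS24, PEP1, VPS21, VPS30 and PEP8), where 41.3% of all 4215 rows were called. It shares 1 estimate of spread over strains of very unlike spread.

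**Figure D4:**
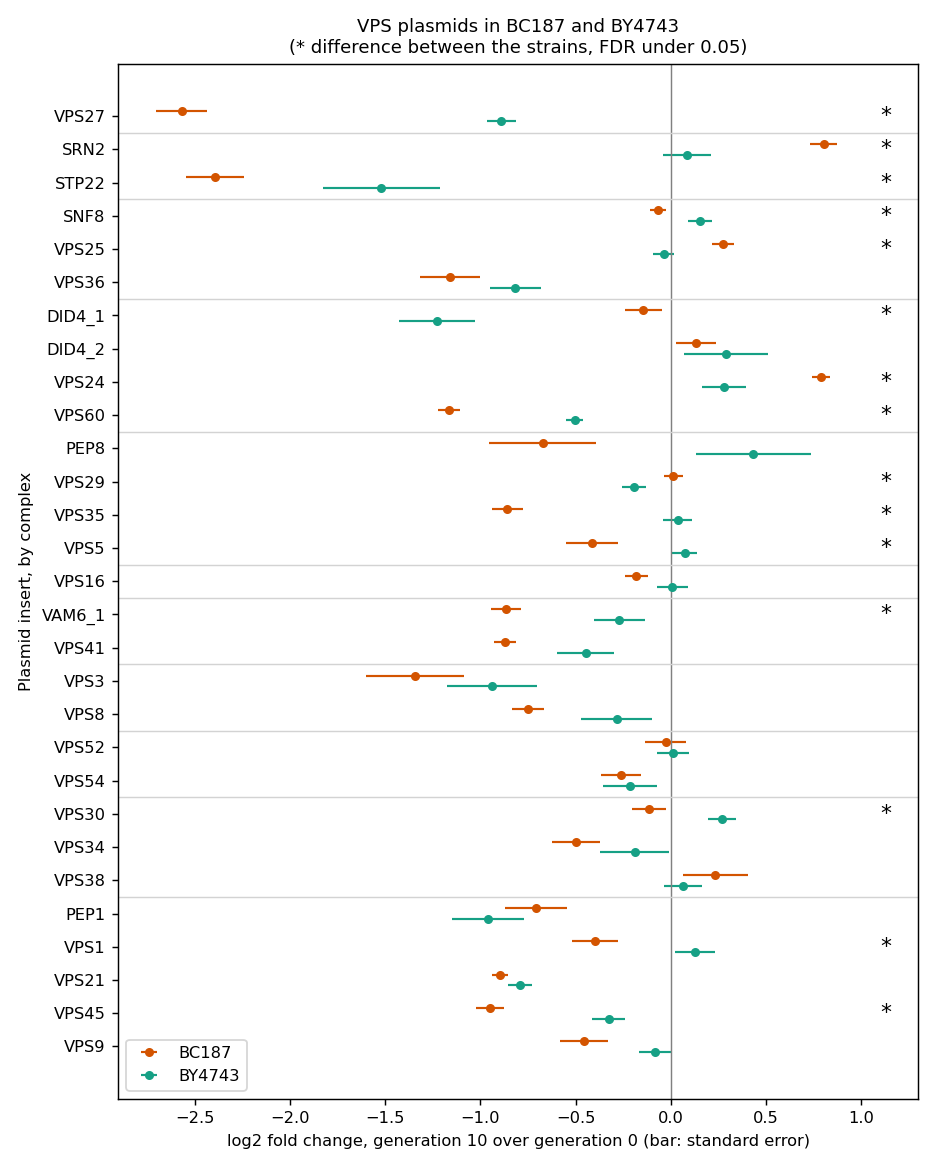
Log2 fold change (horizontal axis) of each VPS row (vertical axis, grouped by complex) in BC187 (orange) and BY4743 (green), with bars of 1 standard error from 3 replicates a group and an asterisk where the strains differed at an FDR under 0.05. VPS27 has the widest gap, at -2.57 in BC187 against -0.89 in BY4743, and SRN2, VPS25 and VPS24 lie higher in BC187.

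Gene length moved with the change. Among the 29 VPS rows the Spearman correlation of gene length with log2 fold change was -0.41 in NCYC3290, -0.33 in YPS128, -0.42 in BC187 and -0.27 in BY4743, against -0.15, -0.24, -0.32 and -0.37 over all rows with a length. These are descriptions across genes, which share libraries, medium and plasmid backbone and are not independent replicates. In BC187 the 9 rows of genes under 1000 bp held all 3 rises (SRN2, VPS24 and VPS25) and 2 of the 17 falls, with a median of 0.01, and the 20 longer rows held 15 falls, with a median of -0.69. The medians of all rows in these length classes were 0.10 and -0.19 in BC187. The shares of all rows that rose or fell in each length class were not counted, so these counts cannot be set against them. In BY4743 the VPS medians were -0.04 and -0.20, against 0.12 and -0.07 over all rows. The part of length in the difference between complexes was not tested.

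**Figure D5:**
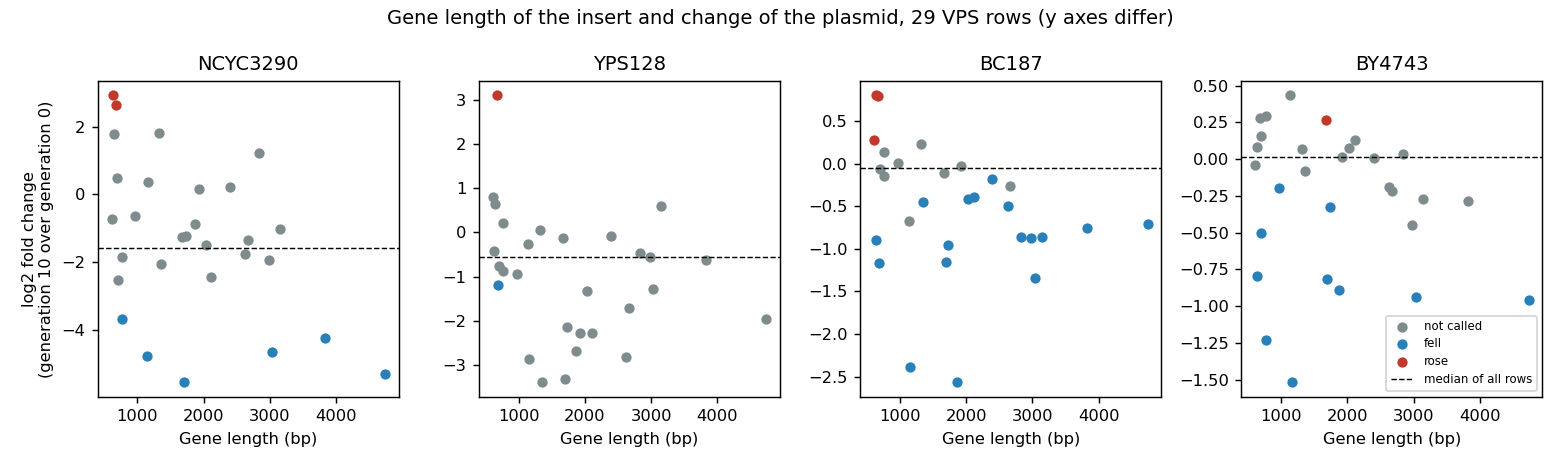
Log2 fold change (vertical axis, scaled per strain) against gene length in bp (horizontal axis) for the 29 VPS rows, coloured by call, with the median of all rows dashed. In BC187 the 3 rises are all under 1000 bp, and most longer genes lie below the dashed line.

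Other genes of the pathway, a list of 57 sorting genes outside the members with 49 rows, gave a mixed picture. In BC187 21 of 42 tested fell and 10 rose, in BY4743 7 of 42 fell and 9 rose, in NCYC3290 9 of 42 fell and 1 rose, and in YPS128 1 of 41 fell and 0 rose. As shares of the list, 50% fell and 23.8% rose in BC187, against 38.1% and 28.5% of all rows, and 16.7% fell and 21.4% rose in BY4743, against 19.5% and 18.2%. In NCYC3290 21.4% fell and 2.38% rose, against 26.1% and 1.89% of all rows, and in YPS128 2.44% fell, against 8.47%. By role, all 6 adaptor rows (APL5, APL6 and APS3 of AP-3, GGA2, ENT3 and ENT5) fell in BC187, whereas 5 of 6 ESCRT partners rose there and 0 fell. These ESCRT partners were IST1 (0.40), DID2 (0.39), SNF7 (0.23), DOA4 (0.18) and MVB12 (0.16), all with small log2 fold changes. SNF7 is the main ESCRT-III polymer and DOA4 the deubiquitinase of the pathway. The largest fall in BC187 was of ENT5, an epsin-like adaptor, at 0, 0 and 0.0715 normalised reads (at most 1 read) at generation 10 against 3.94, 7.14 and 6.92 at generation 0. The largest rise in BC187 was of VAM3, a vacuolar SNARE, at 271, 312 and 288 at generation 10 against 196, 183 and 158 at generation 0 (log2 fold change 0.70 ± 0.09, edgeR FDR 0.000196). Among called rows of BY4743 the endosomal SNARE PEP12 rose most (365, 403 and 427 at generation 10 against 308, 276 and 302 at generation 0, 0.43 ± 0.08, FDR 0.00412) and VPS70 fell most (2.68, 3.18 and 1.67 at generation 10 against 10.3, 8.09 and 11.5 at generation 0, -1.998 ± 0.40, FDR 0.00667). In YPS128 the vacuolar protease gene PRB1 was the only one called (35.7, 71.7 and 32.8 at generation 10 against 257, 305 and 299 at generation 0, -2.61 ± 0.44, FDR 0.0143). In NCYC3290 YPT53, a Rab5 paralogue of VPS21, was the only one that rose, at 10050, 1514 and 757 at generation 10 against 305, 313 and 334 at generation 0 (3.69 ± 1.07, FDR 0.0375), and APL5, of AP-3, had 0 reads in all 3 generation 10 libraries against 6.64, 9.24 and 9.36 at generation 0. YPT53 rose in BC187 too, by 0.30 (FDR 0.00199), where VPS21 fell.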

How the data were processed

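The deposited table holds raw barcode read counts per plasmid, which the authors made from single-end sequencing of barcodes amplified from plasmid preparations. Its values are whole numbers with unlike totals per library, and the tool that assigned reads to barcodes is not given in the sources used here. Columns were matched to samples by title, with 0 columns left over. Gene symbols and positions came from RefSeq R64 by systematic name (4811 of 4817 matched).

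Counts were scaled to library sizes without the 25 rows above 50000 reads, after the study's approach. Generation 10 was tested against generation 0 in each strain, and strains against each other, with edgeR 4.0.16 in R 4.3.3 (quasi-likelihood, filterByExpr with a minimum count of 10, Benjamini-Hochberg over all rows). The script was tested on simulated data. The standard error is the absolute log2 fold change over the square root of F. The study's imputed pseudocount was not used. Limma 3.58.1 (voom with quality weights), DESeq2 1.42.0, TMM factors, all reads, no filter, a joint fit, a replicate block and leaving out each library were alternatives.

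The study calls the replicates biological triplicates. Replicate libraries differed by more than sampling noise (chi-square per degree of freedom from 5.13 to 1110), so none was counted as a duplicate. The members, complexes and the pathway list were chosen with earlier results of these data known. Values in every sample were given for the 2 largest rises and falls in each strain among called rows without overlap, for rows called alike in 3 strains or oppositely in any, and for the pathway genes with the largest rise and fall. VPS25, PEP8, VPS8, DID4_2, VPS38, VPS20 and YPT53 in BC187 were added after their values were seen. Rows with at most 3 reads per library at generation 10 were given a pooled ratio with an exact interval (scipy 1.17.1) in place of a bound.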

Additional observations from a re-analysis of the deposited data

Results flagged for a closer look

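For 15 VPS rows the change over 10 generations differed between BC187 and BY4743 by edgeR's test of the difference itself, at an FDR under 0.05. The difference of log2 fold changes (BC187 minus BY4743) was -1.68 for VPS27, -0.89 for VPS35, -0.88 for STP22, -0.66 for VPS60, -0.62 for VPS45, -0.59 for VAM6_1, -0.52 for VPS1, -0.49 for VPS5, -0.38 for VPS30 and -0.22 for SNF8. It was 1.08 for DID4_1, 0.72 for SRN2, 0.51 for VPS24, 0.31 for VPS25 and 0.21 for VPS29. Between NCYC3290 and YPS128 (NCYC3290 minus YPS128) the difference was 3.33 for VPS21 and -3.64 for VPS8.

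The F test over the 4 strains called 9 VPS rows, with an FDR of 1.03e-05 for VPS24, 6.46e-05 for VPS21, 0.000225 for PEP1, 0.000339 for VPS8, 0.000711 for PEP8, 0.00156 for SNF8, 0.00207 for VPS36, 0.00334 for DID4_2 and 0.0392 for VPS30.

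A pair of rows below the filter on low counts still had reads. VPS20 reached 16 reads and VPS51 reached 10 reads, both in generation 0 replicate 2 of NCYC3290, the library of the largest size at that generation.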

How the results depend on the processing

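Same-numbered libraries had correlations of their deviations between -0.42 and 0.12. These values cannot settle whether the replicate numbers pair the libraries. Each strain has only 3 replicates, and replicates differed far less at generation 0 than at generation 10 in NCYC3290. There the chi-square per degree of freedom was 11.9 to 20.9 at generation 0 and 734 to 1110 at generation 10. With the replicate block, 0 VPS rows rose in NCYC3290 (1.199% of all rows) and 0 in BY4743 (14.2%), 4 fell in YPS128 (13.3%), and 0 differed in NCYC3290 minus YPS128 (3.27%). The block ended the calls of VPS24 and VPS21 in NCYC3290 (FDR 0.0723 and 0.0882), VPS1 and VPS5 in BC187 (0.0526 and 0.0556), and VPS29 and VPS30 in BY4743 (0.12 and 0.0507).

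With TMM factors 3 fell in NCYC3290 (7.33% of all rows), 4 rose and 0 fell in YPS128 (10.3% and 4.72%), and 1 differed in NCYC3290 minus YPS128 (4.21%). Scaled to all reads, 0 rose and 22 fell in NCYC3290 (0.430% and 89.3%), 0 rose and 28 fell in YPS128 (0.383% and 93.5%), and 26 differed among the 4 strains (95.8%). There VPS24 reversed in NCYC3290 (-1.29, a called fall at an edgeR FDR of 0.0394) and YPS128 (-0.044), as did VPS21 in NCYC3290 (-0.92). DESeq2 gave 8 rises in NCYC3290 (22.1%), 4 rises and 5 falls in YPS128 (16.9% and 13.5%), and 4 differences in NCYC3290 minus YPS128 (14.2%). With limma voom 8 fell in YPS128 (18.2%), 2 rose in BY4743 (18.2%), 1 differed in NCYC3290 minus YPS128 (2.29%) and 16 differed among the 4 strains (60.6%). The joint fit, which shares 1 dispersion estimate per row over strains of unlike spread, gave 12 falls in NCYC3290 (53.2%), 5 in YPS128 (21.3%), and 0 rises and 0 falls in BC187 (1.14% and 7.92%) and in BY4743 (0.0237% and 1.64%). The YPS128 falls under DESeq2, limma voom and the joint fit do not include VPS60.

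Leaving out 1 library gave 0 to 2 rises and 4 to 15 falls in NCYC3290, 0 to 15 falls in YPS128 and 0 to 2 rises in BY4743. Falls numbered 14 to 18 in BC187 (34.1 to 37.4% of all rows) and 7 to 11 in BY4743 (12.5 to 25.7%). The VPS median minus that of all rows was -0.21 to -0.077 in BY4743. In NCYC3290 it was -0.15 to 0.59 (0.33 in the main fit and -0.12 with the replicate block). On leaving out 1 library, differing rows numbered 11 to 20 in BC187 minus BY4743, 0 to 8 in NCYC3290 minus YPS128, and 8 to 18 among the 4 strains. Of 533 alternative values for the 41 calls, 438 kept direction and call, 92 kept direction only and 3 reversed. Causes were not tested.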

Other observations

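The generation 0 pools fell into unlike degrees of likeness. Over 4140 rows NCYC3290 and BY4743 had a median absolute log2 difference of 0.0996 at generation 0, and a chi-square per degree of freedom of 17.5 to 43.0 between their libraries. Replicates of 1 strain at generation 0 ranged from 5.13 to 6.49 in BY4743, 11.9 to 20.9 in NCYC3290, 12.5 to 35.8 in BC187 and 14.03 to 86.3 in YPS128. The values between NCYC3290 and BY4743 were all above those of BY4743 replicates and reached above those of NCYC3290 replicates. The other 5 pairs of strains ranged from 178 to 695.

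Generation 10 of NCYC3290 had r = 0.628 with generation 0 of NCYC3290, 0.407 with that of YPS128, 0.447 with that of BC187 and 0.597 with that of BY4743, on log2 means. Generation 10 of BY4743 had 0.880 with generation 0 of NCYC3290 and 0.873 with that of BY4743, whereas generation 10 of YPS128 and of BC187 had their highest values, 0.758 and 0.867, with generation 0 of their own strain. Points are rows that share libraries and depth, and no test was made.

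Start levels of single VPS rows differed most for PEP8, with generation 0 means of 23.2 in NCYC3290, 55.8 in YPS128, 5.06 in BC187 and 26.0 in BY4743.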
